A study of Mus musculus with 9 samples.

Results

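Mature neutrophils carry surface receptors that set where they go and what they respond to, and 8 of the 23499 genes in the blood table were followed here as a group picked by symbol: Csf3r, Cxcr2, Cxcr4, Trem1, Clec4d, Clec4e, Mxd1 and G0s2. All 8 were present in the blood and the joint tables. Only 6 of the 8 encode surface receptors. Mxd1 encodes a nuclear repressor and G0s2 a lipase inhibitor, and both are transcripts of mature neutrophils that stand beside the receptors without being receptors. The blood came from female mice of the 129SvE strain, 5 with arthritis (mice 1, 3, 4, 5 and 6, given disease stages of 1.5, 2, 1.5, 1.5 to 2, and 2 to 2.5 in the labels) and 4 healthy (mice 1 to 4, stage 0). How the arthritis was induced is not given in the sources used here, and no transgene or drug is named for either group. Cells were read by Seq-Well, which captures single cells with barcoded beads in small wells and reads transcripts from the polyA tail. The joint columns match none of the 9 labelled samples and were read as 1 pool per cell class, mixing columns named healthy and sick, with no replicates. Healthy columns of the joint macrophage and osteoblast classes were among 49 joint columns not used. Class names are the deposited ones, shortened here, and several name a reference cell type (the full macrophage label, for instance, is one of bone marrow macrophages given LPS).

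Neutrophils mature in the bone marrow under granulocyte colony-stimulating factor (G-CSF), whose receptor is encoded by Csf3r. CXCR4, the receptor for CXCL12, holds them in the marrow, and CXCR2, the receptor for CXCL1, CXCL2 and related chemokines, draws them out into blood and onward into inflamed tissue. At the site of inflammation TREM1, which signals through the adaptor DAP12, amplifies their activation, while the C-type lectins MCL (Clec4d) and Mincle (Clec4e) recognise microbial glycolipids and products of dead cells through the Fc receptor gamma chain. MXD1 pairs with MAX and represses genes that MYC activates, in cells that have stopped dividing. G0S2 inhibits ATGL, the enzyme that starts the breakdown of stored triglyceride.

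All 8 genes are annotated as protein-coding in GENCODE M21 on GRCm38. Chromosome 1 carries Cxcr2 (plus strand, 74153989 to 74161246), Cxcr4 (minus strand, 128588199 to 128592293) and G0s2 (minus strand, 193272161 to 193273217). Csf3r lies on the plus strand of chromosome 4 from 126024550 to 126044440, and Trem1 on the plus strand of chromosome 17 from 48232768 to 48246924. Chromosome 6 carries Mxd1 (minus strand, 86647042 to 86669161). Also there, Clec4d (plus strand, 123262111 to 123275265) and Clec4e (minus strand, 123281789 to 123289870) are neighbours with 6523 bases between them. Intervals of other annotated genes overlap 3 members: Lamb3 on the other strand overlaps G0s2, a processed pseudogene on the other strand overlaps Trem1, and a transcript of unverified status on the same strand overlaps Mxd1.

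Promoter sequences are shown for 4 members because their transcripts moved together or in opposite directions within the granulocyte columns (Trem1, Mxd1 and G0s2 one way, Clec4d the other, as described further on). Each is the 250 bases before the RefSeq start of the gene on GRCm38.p6, written 5′ to 3′ on the gene's own strand, at chr17:48232489-48232738 (plus) for Trem1, chr6:86669160-86669409 (minus) for Mxd1, chr1:193273189-193273438 (minus) for G0s2 and chr6:123261857-123262106 (plus) for Clec4d. Capitals mark matches on either strand to TTNNGNAA, the core bound by C/EBP factors of the granulocyte lineage, or to GAGGAA, the core bound by the myeloid factor PU.1.
Trem1: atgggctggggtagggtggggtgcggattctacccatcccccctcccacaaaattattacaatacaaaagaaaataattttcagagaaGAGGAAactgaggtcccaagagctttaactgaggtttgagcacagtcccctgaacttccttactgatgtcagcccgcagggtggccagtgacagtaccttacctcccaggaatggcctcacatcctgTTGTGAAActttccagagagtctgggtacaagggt
Mxd1: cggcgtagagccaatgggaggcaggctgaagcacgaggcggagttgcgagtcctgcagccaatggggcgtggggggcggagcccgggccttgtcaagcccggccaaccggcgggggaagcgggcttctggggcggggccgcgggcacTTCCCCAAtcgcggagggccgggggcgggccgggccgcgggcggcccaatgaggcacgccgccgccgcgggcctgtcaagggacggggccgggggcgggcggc
G0s2: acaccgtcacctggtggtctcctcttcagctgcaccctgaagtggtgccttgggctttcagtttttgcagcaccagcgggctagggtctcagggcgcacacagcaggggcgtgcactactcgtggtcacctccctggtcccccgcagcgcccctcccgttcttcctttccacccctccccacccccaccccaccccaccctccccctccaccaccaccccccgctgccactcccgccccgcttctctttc
Clec4d: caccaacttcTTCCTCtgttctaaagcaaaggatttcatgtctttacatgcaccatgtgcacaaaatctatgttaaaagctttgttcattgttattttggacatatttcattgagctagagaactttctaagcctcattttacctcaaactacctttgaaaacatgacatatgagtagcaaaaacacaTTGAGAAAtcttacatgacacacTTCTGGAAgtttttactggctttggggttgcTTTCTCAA
The Trem1 window held 1 match to the C/EBP core, whose first base lies 35 bases before the start, and 1 to the PU.1 core, 162 bases before it. In the Mxd1 window 1 C/EBP match began 103 bases before the start, and the G0s2 window held a match to neither core. Clec4d had 3 C/EBP matches, beginning 62, 39 and 8 bases before the start, and 1 PU.1 match 240 bases before it. Of the 8 member windows, 5 held the C/EBP core and 5 the PU.1 core, and no match overlapped another kind. Among 32851 promoter windows of the same length, 36.9% held the C/EBP core and 23.3% the PU.1 core. A match is a description of the letters only.

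The blood table held 4310 barcode columns, 4008 from arthritic and 302 from healthy mice, each with a deposited cell class. Total signal, the sum of the deposited values, was 8350920 to 13557201 per arthritic mouse and 330950 to 2053973 per healthy mouse. The granulocyte class held 1905 columns, 249 to 489 per arthritic mouse and 5 to 20 per healthy mouse (13, 5, 11 and 20 in healthy mice 1 to 4), so healthy values rest on little signal. Across all blood columns 1313 were identical to another in every gene, and 9 of the 49 healthy granulocyte columns were identical to an arthritic one. Whether a column holds 1 cell or a sum over similar cells is not given in the sources used here, so columns, their signal units and the tiers described further on are not read as single cells. Over pooled columns the granulocyte label matched its markers: 11 of 11 neutrophil markers other than members were highest in this class among 6 blood classes. Of those granulocyte columns 1856 were arthritic and 49 healthy, so the check says little about the healthy ones. Per 1000000 of signal, these markers held 13664, 131453, 13639 and 16893 in granulocyte columns of healthy mice 1 to 4. Over all columns of these mice they held 9648, 5571, 9174 and 10724. The tissue tag in the labels reads PBMC, a fraction that is usually low in granulocytes, beside Blood. Values below are signal per 1000000 (SPM) summed over the columns of each mouse and scaled for composition, unless called unscaled. In bulk sums over all columns, fewer cells of a type and less RNA per cell cannot be told apart.

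In granulocyte columns Trem1 and Mxd1 rose in arthritic mice, each above every healthy mouse. Trem1, the DAP12-coupled activating receptor, stood at 190.5, 219, 206, 181 and 143 SPM in arthritic mice 1, 3, 4, 5 and 6, against 55.2, 97.7, 70.2 and 43.9 SPM in healthy mice 1 to 4. The lowest arthritic mouse was thus clear of the highest healthy one. Trem1 averaged 188 ± 29.0 SPM in arthritic mice and 66.7 ± 23.3 SPM in healthy mice (SD, n = 5 and 4). The log2 difference was 1.53 with a standard error of 0.25 (limma, Benjamini-Hochberg adjusted p = 0.0342 over all genes), and ± after a log2 difference gives that error below. Mxd1 stood at 449.8, 427.5, 441, 441 and 278 SPM in the arthritic mice, against 121, 244, 149 and 191 SPM in the healthy mice. Arthritic mouse 6 was the lowest of its group and healthy mouse 2 the highest of the other, with no overlap. Mxd1 averaged 407 ± 72.9 SPM in arthritic mice and 177 ± 53.5 SPM in healthy mice, a log2 difference of 1.23 ± 0.24 (limma adjusted p = 0.0471).

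The fit covered 7935 genes, of which 52 passed the threshold of 0.05, that is 0.655%. In the upward direction 46 passed, or 0.58%, beside 2 of the 8 members. Every arthritic mouse lay above every healthy mouse for 8.65% of the genes tested and for these same 2 members. All genes had a median log2 difference of 0.53 in these columns, and 77.3% were positive. How much of each member's value belongs to this general shift was not tested. Taken relative to that median, Trem1 stood at 1.00 and Mxd1 at 0.70. Both calls were lost under scaling by median of ratios (adjusted p = 0.0812 for Trem1 and 0.118 for Mxd1), under scaling by the total alone (0.200 and 0.231) and when each mouse was thinned to the smallest total (0.691 for both). They were also lost without arthritic mouse 1, 3, 4 or 5 (adjusted p from 0.0664 to 0.138 for Trem1 and from 0.0878 to 0.148 for Mxd1), and Mxd1 with a pseudocount of 0.5 (0.0546), while the direction held throughout.

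The remaining 6 members were each higher on average in arthritic granulocyte columns without passing the threshold. Csf3r, the G-CSF receptor, stood at 52.5, 52.4, 82.9, 63.0 and 86.9 SPM in arthritic mice, against 55.2, 12.2, 105 and 43.9 SPM in healthy mice. The groups overlapped fully, with the highest value of all in healthy mouse 3 (log2 difference 0.63 ± 0.50, limma adjusted p = 0.457). Cxcr2 stood at 316, 327, 338, 277 and 272 SPM in arthritic mice, against 82.8, 159, 281 and 132 SPM in healthy mice. Only healthy mouse 3 reached into the arthritic range (1.03 ± 0.30, limma adjusted p = 0.108). Cxcr4, the marrow retention receptor, stood at 148, 134, 166, 166 and 183 SPM in arthritic mice, against 105, 134, 105 and 91.7 SPM in healthy mice. Its log2 difference of 0.55 ± 0.19 (limma adjusted p = 0.148) lay 0.019 above the median of all genes.

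The neighbouring lectin genes differed in how they spread. Clec4e stood at 73.9, 79.5, 110.2, 93.8 and 112 SPM in arthritic mice, against 44.1, 85.5, 61.4 and 55.8 SPM in healthy mice (log2 difference 0.62 ± 0.25, limma adjusted p = 0.193). Clec4d stood at 40.2, 47.6, 118, 100.4 and 78.1 SPM in arthritic mice, against 22.1, 0, 96.5 and 59.8 SPM in healthy mice. Its fitted difference of 1.90 ± 1.08 (limma adjusted p = 0.313) depends on healthy mouse 2, in which 5 columns held no Clec4d signal. G0s2 stood at 161, 181, 97.3, 106 and 49.1 SPM in arthritic mice, against 0, 85.5, 8.78 and 12.0 SPM in healthy mice. The healthy values rest on 0, 7, 1 and 3 units of signal, and healthy mouse 2, with 5 columns, lay inside the arthritic range. The fitted log2 difference of 3.42 ± 0.98 (limma adjusted p = 0.108) depends on the pseudocount for so low a group. Without healthy mouse 2 it was 4.58 (limma adjusted p = 0.0098). Without that mouse Cxcr2 (1.27, 0.0382), Cxcr4 (0.86, 0.0207) and Clec4e (0.99, 0.0278) passed as well. There 883 genes were called, against 52 with all mice, so these calls were part of a general rise. Without healthy mouse 3 Cxcr2 passed too, at 1.48 (limma adjusted p = 0.0218), among 243 genes called.

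**Figure D1:**
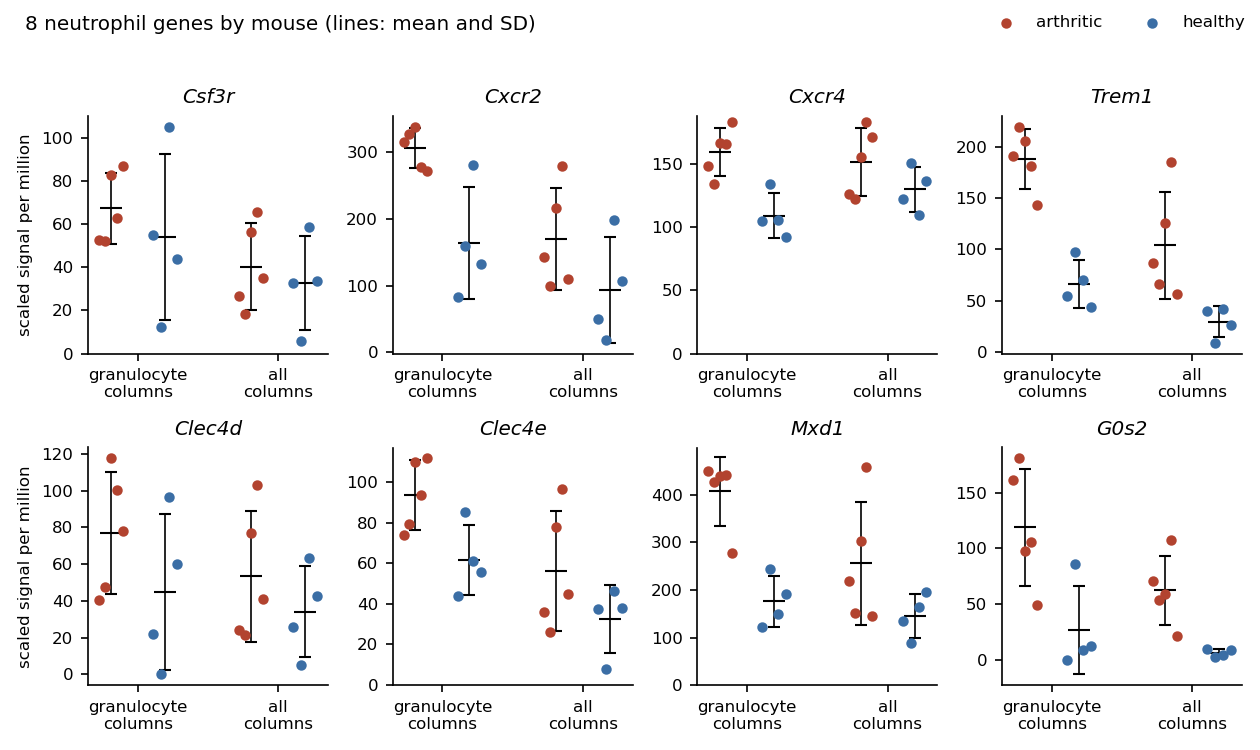
Scaled SPM (y axis) of each of the 8 genes by mouse, in granulocyte columns and in all blood columns, with arthritic mice left of healthy mice. Points are mice and the lines give mean and SD (n = 5 and 4). In granulocyte columns the arthritic points of Trem1 (143 to 219) and Mxd1 (278 to 450) lie above every healthy point, and in all columns those of Trem1 and G0s2 do.

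Other transcripts moved with the groups in the granulocyte columns. Hemoglobin genes took 0.704 to 51.6% of the signal in arthritic mice (median 7.21%) and 22.3 to 53.7% in healthy mice (median 32.8%). The 11 neutrophil markers other than members summed to 64102 to 331466 unscaled SPM in arthritic mice and 13639 to 131453 in healthy mice, with all 11 detected in every mouse. The top of the healthy range was healthy mouse 2 alone, with 5 columns, and the other 3 healthy mice lay at 13639 to 16893, below every arthritic mouse. Markers of osteoblasts and stromal cells summed to 39.4 to 87.5 unscaled SPM in arthritic mice and 133 to 349 in healthy mice, with Sp7 at 0 in all 9. NK cell markers summed to 12.3 to 82.8 unscaled SPM in arthritic mice and 46.4 to 167 in healthy mice. Ncr1, Klrb1c and Prf1 were at 0 in the 4 healthy mice, and Eomes in healthy mice 1 and 2. In arthritic mouse 3 Klrb1c was at 0. T cell markers summed to 78.8 to 267 unscaled SPM in arthritic mice and 183 to 232 in healthy mice, with 4 of the 5 arthritic mice below every healthy one. Mitochondrial transcripts, a sign of RNA quality, took 2.87 to 7.49% of the signal in arthritic mice (median 3.29%) and 5.65 to 7.67% in healthy mice (median 6.67%), again with 4 of 5 arthritic mice below every healthy one. With hemoglobin genes left out of the sums, Trem1 differed by 1.61 (limma adjusted p = 0.00818) and Mxd1 by 1.31 (0.0232). That step removed genes from the sums but no columns. Another alternative collapsed identical columns within each mouse and removed columns found in both groups, which left 3 healthy mice. The values were then 1.90 for Trem1 and 1.49 for Mxd1 (limma adjusted p = 0.00546 and 0.00864). That removal takes out profiles the groups share, and its part in these values was not tested. Monocyte and macrophage markers overlapped between the groups, at 620 to 4399 unscaled SPM in arthritic mice and 1082 to 2754 in healthy mice. The highest values were those of arthritic mouse 6 and healthy mouse 1. The part of the hemoglobin, neutrophil, stromal, NK, T cell, monocyte and mitochondrial signal in the result was not tested. In unscaled SPM the groups overlapped: the lowest arthritic mouse, mouse 5, had 112 for Trem1 and 273 for Mxd1, and the highest healthy mouse, mouse 2, had 133 and 333.

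Over all blood columns no member passed the threshold, and G0s2 and Trem1 stood farthest from zero. G0s2 stood at 70.8, 53.4, 58.7, 107 and 21.7 SPM in arthritic mice 1, 3, 4, 5 and 6, against 9.39, 2.69, 4.21 and 8.92 SPM in healthy mice 1 to 4. Every arthritic mouse exceeded every healthy mouse (means of 62.4 ± 31.0 and 6.31 ± 3.36 SPM, SD). Its log2 difference was 3.08 ± 0.47, with a limma adjusted p of 0.0604 that ranged from 0.00426 (without arthritic mouse 6) to 0.247 (without arthritic mouse 4) over the alternatives. Trem1 stood at 86.9, 66.3, 125, 185 and 56.6 SPM in arthritic mice, against 39.9, 9.23, 42.1 and 26.8 SPM in healthy mice, again without overlap (1.85 ± 0.46, limma adjusted p = 0.191). Among 8459 genes tested, 4 were called (0.0473%), 1 of them in the upward direction (0.0118%), and 3.64% had every arthritic mouse above every healthy mouse, against 2 of the 8 members.

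The other 6 members overlapped between the groups over all columns. Cxcr2 averaged 169 ± 76.6 SPM in arthritic mice and 93.2 ± 78.9 SPM in healthy mice (log2 difference 1.22 ± 0.58, limma adjusted p = 0.386), and Mxd1 256 ± 130.3 and 146 ± 46.2 SPM (0.73 ± 0.36, limma adjusted p = 0.392). Clec4e (0.86), Clec4d (0.81), Csf3r (0.51) and Cxcr4 (0.22) had adjusted p of 0.442 to 0.665 in the limma fit. The 8 log2 differences had a median of 0.83, beside 0.257 over all genes, and all 8 were positive, beside 69.3% of genes. Csf3r reversed to -0.17 without healthy mouse 2, whose 201 columns included 5 granulocyte columns. Granulocytes made up 47.6, 33.5, 49.9, 86.7 and 31.4% of the columns of the arthritic mice and 43.3, 2.49, 42.3 and 44.4% of those of the healthy mice, so this share overlapped between the groups. The 11 neutrophil markers other than members did not overlap, at 21587 to 159152 unscaled SPM in arthritic mice and 5571 to 10724 in healthy mice over all columns. The part of either in the result over all columns was not tested.

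**Figure D2:**
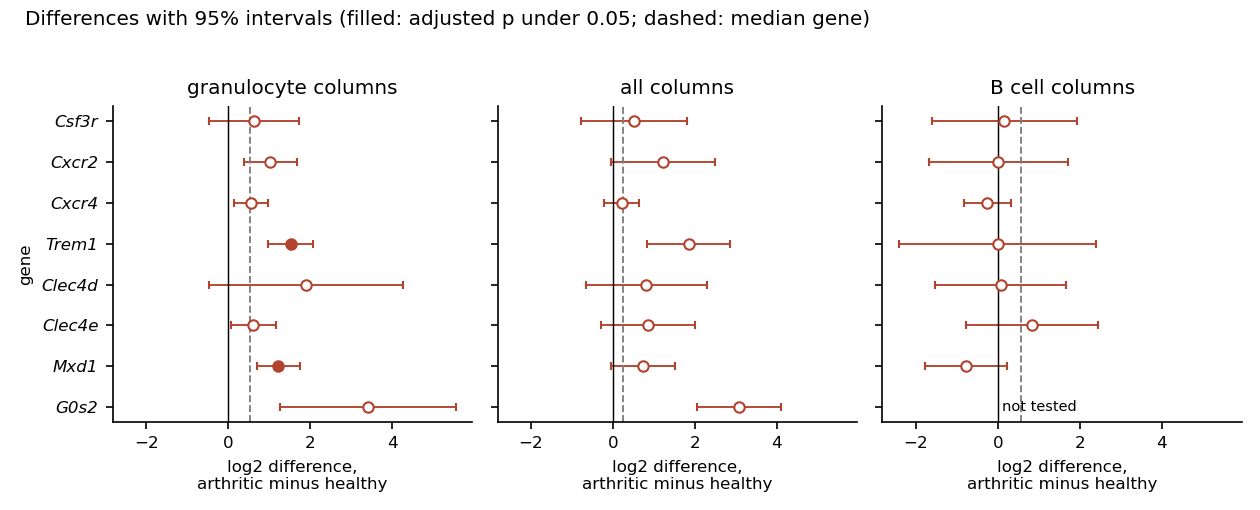
Log2 difference, arthritic minus healthy (x axis), of each gene in granulocyte, all and B cell columns, with 95% intervals of the limma fit. Filled points passed an adjusted p of 0.05, which Trem1 and Mxd1 did in granulocyte columns, and the dashed line is the median of all genes tested (0.53, 0.26 and 0.56).

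B cell columns, a class in which Cxcr4 alone of the 8 reached its granulocyte level, gave no call among 9585 genes (0%), while 677 genes had an unadjusted p under 0.05. They came from 5 arthritic and 3 healthy mice, and 7 members were tested. Cxcr4 stood at 178, 169, 183, 149 and 212 SPM in arthritic mice 1, 3, 4, 5 and 6, against 203, 193 and 241 SPM in healthy mice 1, 2 and 4. The groups overlapped at the level of arthritic mouse 6 (log2 difference -0.25 ± 0.26, limma adjusted p = 0.623). Mxd1 averaged 81.6 ± 16.3 SPM in arthritic mice and 167 ± 131 SPM in healthy mice, where healthy mouse 4 alone was at 318 (-0.78 ± 0.45, limma adjusted p = 0.519). The other members averaged 6.60 to 33.4 SPM in arthritic mice and 4.67 to 53.5 SPM in healthy mice.

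Whether the arthritic-healthy difference itself differed between granulocyte and B cell columns was tested per mouse, and 0 of 7171 genes passed in limma (0%), with 648 at an unadjusted p under 0.05. Mxd1 had a difference of differences of 1.94 ± 0.61 (limma adjusted p = 0.539), Clec4d one of 2.61 ± 0.91 (0.539) and Trem1 one of 1.58 ± 1.09 (0.642). The call of Trem1 and Mxd1 in granulocyte columns is therefore not shown to be particular to that class.

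By class, 6 of the 8 genes had their highest blood level in granulocytes. These and the following levels are unscaled SPM over all columns of a class, described without a test, and cover the 6 blood classes with at least 20 columns. Cxcr2 reached 283 in granulocytes, Trem1 174, Mxd1 384, G0s2 115, Clec4e 84.0 and Csf3r 60.3. The next class was the myeloid dendritic one in each case, at 64.8 for Cxcr2, 42.9 for Trem1, 156 for Mxd1, 35.4 for G0s2, 67.3 for Clec4e and 44.6 for Csf3r. That class held the highest level of 10 of 13 monocyte and macrophage markers and of 7 of 7 dendritic markers, so it covers both kinds of cell. Over mice, every granulocyte value of Cxcr2 (lowest 106) lay above every myeloid dendritic value (highest 86.8; 9 and 4 mice). For Trem1 and Mxd1 the gap between these classes exceeded the spread over mice although their ranges overlapped. For Csf3r, Clec4e and G0s2 the gap was within that spread. The myeloid dendritic values came from arthritic mice only (1, 3, 4 and 6), while the granulocyte spread included healthy mice. Among arthritic mice alone, the lowest granulocyte values were 112 for Trem1, 273 for Mxd1 and 65.7 for G0s2. The highest myeloid dendritic values were 56.9, 203 and 56.9, so these genes separated there. Csf3r and Clec4e still overlapped. Below the second class, every myeloid dendritic value of Clec4e (lowest 44.5) lay above every progenitor value (highest 33.0). The step down also exceeded the spread for Csf3r and Trem1, although ranges overlapped. It was within the spread for Cxcr2, Mxd1 and G0s2.

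Clec4d and Cxcr4 had another order. Clec4d was highest in myeloid dendritic columns at 74.9 unscaled SPM, with granulocytes second at 67.7, a gap within the spread over mice. Its step from granulocytes down to common myeloid progenitors exceeded that spread, although ranges overlapped. Cxcr4 was highest in CD4 T cells at 216, followed by myeloid dendritic cells at 210.4, B cells at 198 and granulocytes at 145, with common myeloid progenitors lowest at 51.3. In the order of means over mice, where B cells came ahead of myeloid dendritic cells, no neighbours among the first 5 classes differed beyond their spread, while the step down to the progenitors did. Granulocyte columns held 48.8% of all blood signal. They held 93.9% of G0s2 signal, 91.5% of Trem1, 90.2% of Cxcr2, 84.2% of Clec4e, 82.8% of Csf3r, 80.6% of Mxd1, 76.5% of Clec4d and 45.1% of Cxcr4. In B cell columns, a class that should lack most of these transcripts, Cxcr2 still reached 31.6, and in CD4 T cells 10.4. Cxcr2 values of that size in other classes are not read as expression. Mxd1 reached 87.5 in B cell and 81.3 in CD4 T cell columns, with signal in 52.8% and 53.1% of the columns. Whether this is expression in those cells was not tested.

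In the joint the C-type lectin genes were highest in another class. Joint macrophages (66 columns), a class that held the highest level of 11 of 13 monocyte and macrophage markers, reached 512 unscaled SPM for Clec4d and 352 for Clec4e. Joint granulocytes (6487 columns) stood at 58.1 and 87.7. Because healthy macrophage columns were among those not used, the pools of these classes may differ in their mix of healthy and sick columns. Macrophages were also highest for Cxcr4 at 268, ahead of CD4 T cells at 190 and granulocytes at 134, and stood beside granulocytes for Csf3r, at 48.5 and 46.1. Joint granulocytes were highest for Cxcr2 at 227, Trem1 at 230, Mxd1 at 433 and G0s2 at 135. The second class stood at 65.7 for Cxcr2 (foxP3 T cells), 83.7 for Trem1 and 159 for Mxd1 (macrophages) and 29.3 for G0s2 (osteoblasts). All 11 neutrophil markers other than members were highest in joint granulocytes among 7 joint classes.

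Between the granulocyte classes of the 2 tissues the levels lay close. The ratio of joint to blood was 1.32 for Trem1, 1.18 for G0s2, 1.13 for Mxd1, 1.04 for Clec4e, 0.92 for Cxcr4, 0.86 for Clec4d, 0.80 for Cxcr2 and 0.76 for Csf3r. The tables were set side by side as deposited, the joint has no replicate, and the blood columns are mostly arthritic, so none of these ratios was tested. Within the blood granulocytes the unscaled arthritic values ran from 112 to 232 for Trem1 and from 172 to 375 for Cxcr2, which takes in the joint values of 230 and 227.

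**Figure D3:**
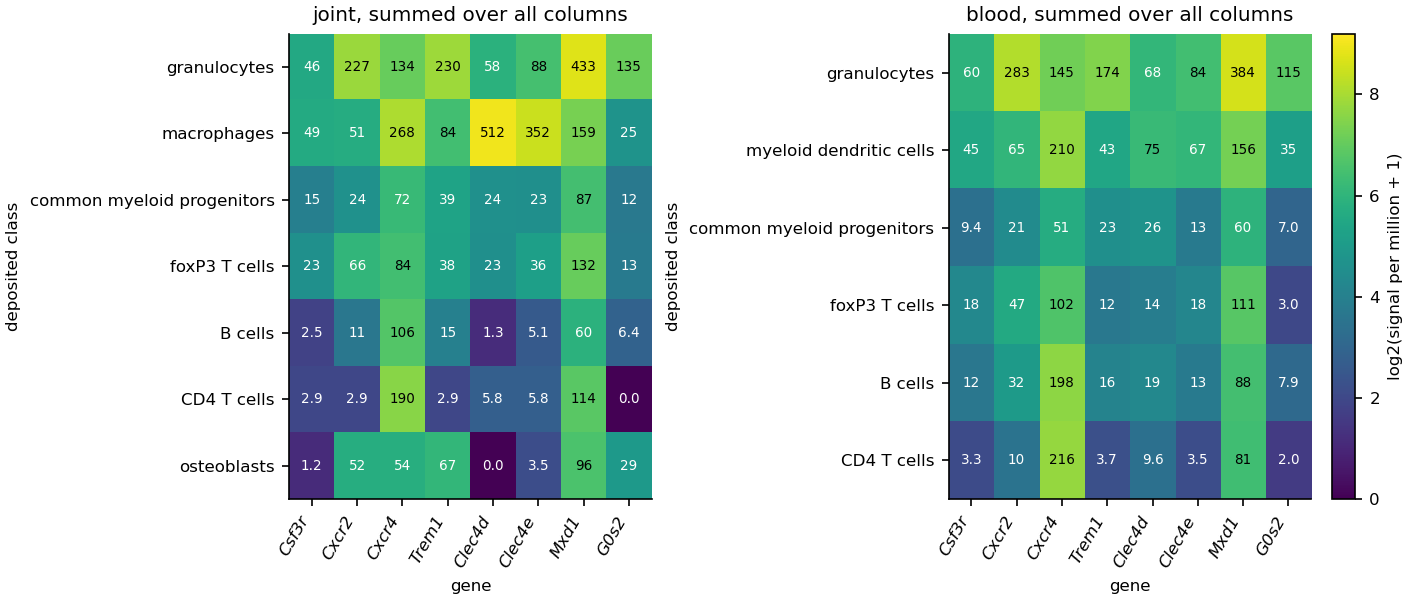
Unscaled SPM of each gene (x axis) in each deposited class with at least 20 columns in that tissue (y axis), for the joint on the left and blood on the right, coloured on a log2 scale with the value written in each cell. Healthy macrophage and osteoblast columns of the joint were among those not used. Granulocytes hold the highest value of Cxcr2, Trem1, Mxd1 and G0s2 in both tissues, among joint classes macrophages hold that of Clec4d (512) and Clec4e (352), and Cxcr4 is spread over several classes.

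The balance of Cxcr2 to Cxcr4, the egress and the retention receptor, was read within granulocyte columns, where a ratio needs no scaling. It was 2.13, 2.44, 2.03, 1.67 and 1.48 in arthritic mice 1, 3, 4, 5 and 6, against 0.789, 1.18, 2.67 and 1.43 in healthy mice 1 to 4. The groups overlapped, with healthy mouse 3 highest of all. The healthy ratios rest on 11 to 33 units of signal for each gene. Over the pooled granulocyte columns the ratio was 1.69 in the joint and 1.95 in blood.

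Within the granulocyte columns of arthritic mice the 8 genes fell on different sides of a gradient in granule transcripts. The 1563 distinct columns of the 5 mice were ranked in each mouse by the share of their signal in the list of immature neutrophil and granule genes. That list holds no member, and the ranked columns were cut into 3 tiers of equal size. Tier values here and in the next paragraph are unscaled SPM. G0s2 was higher in the granule-rich than in the granule-poor tier in 5 of 5 mice, at 190 against 43.7 SPM on average (log2 ratios of 1.67 to 3.26, median 1.87). Trem1 averaged 252 SPM in the granule-rich and 131 SPM in the granule-poor tier, again higher in 5 of 5 mice (median 1.15). Mxd1 averaged 512 and 278 SPM, also higher in 5 of 5 (median 0.71). Clec4d went the other way in 5 of 5 mice, at 59.3 SPM in the granule-rich and 109 SPM in the granule-poor tier (median -1.02). Csf3r was lower in the granule-rich tier in 4 of 5 mice (52.9 and 91.7 SPM, median -0.99), with mouse 5 the exception. Cxcr2, Cxcr4 and Clec4e had no common direction, being lower in the granule-rich tier in 2, 3 and 3 of 5 mice.

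The course between the outer tiers differed between mice. In mice 1 and 3 Trem1 and Mxd1 peaked in the middle tier (246 and 301 SPM for Trem1, 602 and 591 for Mxd1), and Cxcr2 did as well (423 and 406). In mouse 4 Trem1 and Mxd1 were higher at each step, reaching 278 and 597 SPM in the granule-rich tier. In mouse 6 the middle tier was lowest for both. That tier held 6460 SPM of monocyte and macrophage markers. Monocyte and macrophage markers summed to 662, 683, 664, 760 and 2350 SPM in the granule-rich tiers of mice 1, 3, 4, 5 and 6, against 3923, 4554, 2736, 1031 and 4772 SPM in the granule-poor tiers. Hemoglobin took 0.616, 0.556, 23.9, 31.4 and 7.61% of the granule-rich tiers, against 1.07, 0.940, 38.8, 57.3 and 7.22% of the granule-poor tiers. The part of either in these differences was not tested, and columns of 1 mouse are not replicates.

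**Figure D4:**
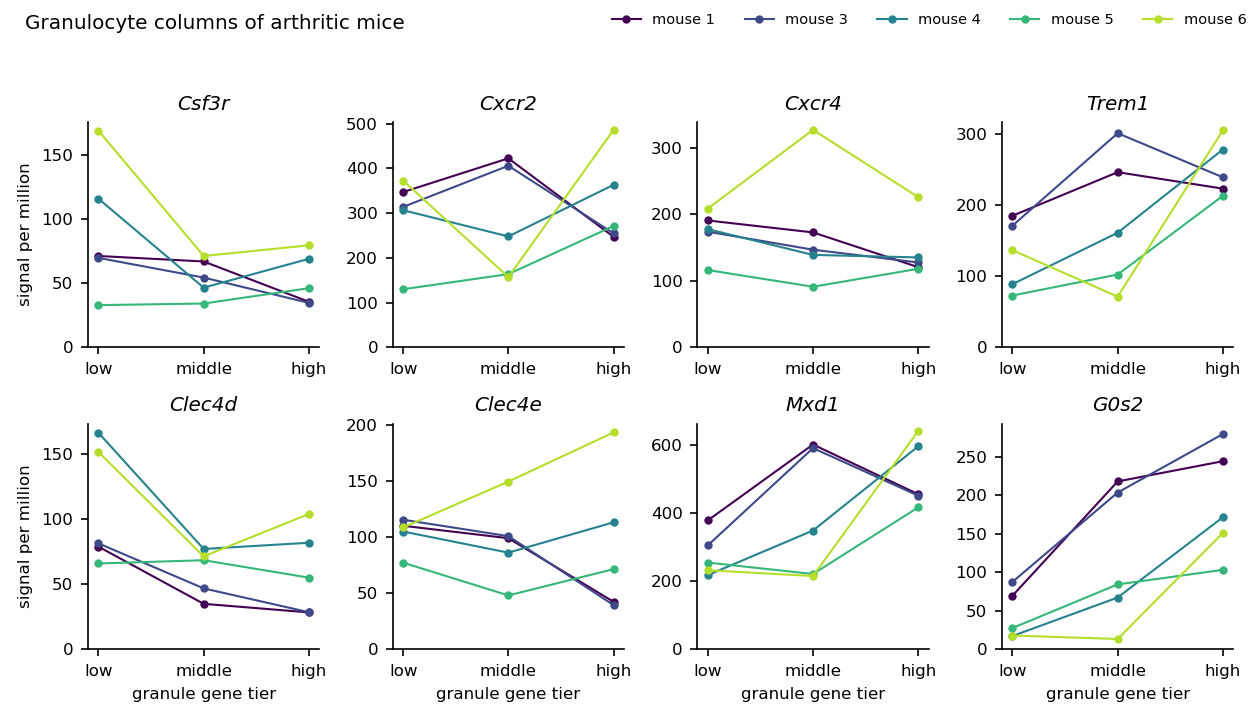
Unscaled SPM (y axis, from 0) of each gene in the granule-poor (low), middle and granule-rich (high) tiers of the granulocyte columns of each arthritic mouse, 1 line per mouse. G0s2, Trem1 and Mxd1 end higher in the high tier than in the low tier in 5 of 5 mice, and Clec4d ends lower in 5 of 5.

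Across 38 blood profiles, each 1 class in 1 mouse with at least 5 columns, the genes most like each member were named from 7147 by Pearson's r. These profiles share mice, classes and depth, so r is a description. Cxcr2 was most like the alarmin genes S100a9 (r = 0.86) and S100a8 (0.83) and the haptoglobin gene Hp (0.84). Mxd1 was most like Cxcr2 itself (0.82), S100a9 (0.80) and Padi4 (0.80), which encodes a histone-citrullinating enzyme of neutrophils. Trem1 was followed by Golim4, Hp and Ifitm6 (0.83 each), and G0s2 by Ifitm6 (0.82), Trem1 (0.79) and the hexokinase gene Hk3 (0.79). Csf3r was most like Wfdc17 (0.89), Igsf6 (0.88) and Mgst1 (0.84). Clec4e was most like another C-type lectin gene, Clec4a2 (0.87), the collagenase gene Mmp8 (0.86) and the chemokine gene Ccl2 (0.86). Clec4d had the weakest likenesses, to Csgalnact2 (0.79), Plcb1 (0.76) and the cathepsin gene Ctsl (0.75). Cxcr4 was most like Dnajb9 (0.88), Cd53 (0.87) and Cytip (0.83), and its r with the other 7 members ran from -0.19 to 0.23, while the other pairs of members ran from 0.36 to 0.82.

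Genes around the receptors were counted in 10 lists in granulocyte columns, where 21.6% of all genes had an unadjusted p under 0.05 and 0.655% were called. Of the 6 ligand genes tested in granulocyte columns, all 6 were positive (median log2 difference 1.67, beside 0.53 for all genes) and 0 of 6 were called, with 2 at an unadjusted p under 0.05. Pglyrp1, which encodes a TREM1 ligand stored in neutrophil granules, averaged 689 ± 414 SPM in arthritic mice and 147 ± 98.2 SPM in healthy mice (log2 difference 2.17 ± 0.50, limma adjusted p = 0.0689). Cxcl2, a CXCR2 ligand, averaged 63.9 ± 12.0 and 32.5 ± 38.5 SPM (2.27 ± 1.00, limma adjusted p = 0.221). Among 11 adaptors and signalling genes of TREM1, MCL and Mincle, 8 were positive, 0 were called and 5 had an unadjusted p under 0.05, with a median of 0.45. The 5 went both ways. Malt1, the paracaspase downstream of CARD9, averaged 36.4 ± 6.76 SPM in arthritic mice and 73.9 ± 36.2 SPM in healthy mice (-0.89 ± 0.34, limma adjusted p = 0.173). Hcst, the adaptor DAP10, averaged 178 ± 60.3 SPM in arthritic mice and 65.9 ± 16.6 SPM in healthy mice and was higher in every arthritic mouse (1.38 ± 0.29, limma adjusted p = 0.061). Although Hcst was placed in this list, DAP10 is neither the adaptor named above for TREM1 nor the Fc receptor gamma chain named for MCL and Mincle. Values of the genes for those adaptors are not printed here, so the Hcst value says nothing about them. Of 11 genes of G-CSF receptor signalling, 9 were positive (median 0.41) and 0 were called, 2 of them at an unadjusted p under 0.05. Stat3, a transcription factor downstream of the receptor, averaged 65.5 ± 19.4 and 27.3 ± 7.99 SPM (1.22 ± 0.32, limma adjusted p = 0.0955). Of 16 chemokine receptor signalling genes, 14 were positive (median 0.62), 0 were called and 6 had an unadjusted p under 0.05, Rac2, a GTPase of neutrophil migration, among them (1.38 ± 0.35, limma adjusted p = 0.0865).

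Other neutrophil lists held the few calls. Of 30 other surface receptors of neutrophils, 28 were positive in granulocyte columns with a median log2 difference of 0.94, 0 were called and 20 had an unadjusted p under 0.05. Trem3, a relative of Trem1, averaged 252 ± 128 SPM in arthritic mice and 33.5 ± 19.2 SPM in healthy mice (3.02 ± 0.63, limma adjusted p = 0.0577). Of 23 other mature neutrophil genes, 18 were positive (median 0.74) and 1 was called higher, Retnlg, a resistin-like secreted protein, at 2289 ± 818 SPM in arthritic mice and 499 ± 248 SPM in healthy mice (2.23 ± 0.35, limma adjusted p = 0.0298). Of 19 immature neutrophil and granule genes, 18 were positive with a median of 2.00, and 2 were called higher, Cd177 (3.58 ± 0.70, limma adjusted p = 0.046) and Mmp25. Among 6 tested genes of the MYC, MAX and MXD network, 5 were positive (median 0.58) and 0 were called, 1 at an unadjusted p under 0.05. Max, the partner of MXD1, averaged 66.2 ± 8.23 SPM in arthritic mice and 15.9 ± 15.6 SPM in healthy mice, above every healthy mouse in 5 of 5 (2.93 ± 0.86, limma adjusted p = 0.112). Of 8 lipolysis and lipid droplet genes, all 8 were positive with a median of 1.85, 0 were called and 6 had an unadjusted p under 0.05. Plin3, a lipid droplet coat protein, averaged 45.4 ± 25.7 and 4.05 ± 5.76 SPM (3.85 ± 0.83, limma adjusted p = 0.0622). The 7 tested genes of the CXCR4 retention axis had 1 positive value, a median of -0.13, 0 calls and 1 gene at an unadjusted p under 0.05. That gene was the positive one, the transcription factor gene Klf2, at 189 ± 40.2 SPM in arthritic mice and 120.3 ± 26.9 SPM in healthy mice (0.65 ± 0.22, limma adjusted p = 0.147).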

How the data were processed

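Per the labels' protocols, blood cells were read by Seq-Well, read 1 carrying the barcode and read 2 the transcript, and processed with the Drop-seq core protocol on GRCm38.p5, also named in the submitters' processing notes. The aligner, the filter on cells and how classes were called stay not given in the sources used here. What the authors deposited is signal per gene and column: whole numbers, not scaled to a common total, not treated as counts because 1313 of 4310 blood columns were identical to another, so that a column may be a sum over similar cells. The deposited class names were used. A further 49 joint columns were not used, healthy columns of the macrophage and osteoblast classes among them. Doublets were not called. Class and mouse of each blood column were read from its name. Of 4309 distinct barcodes, 1 occurred in more than 1 mouse.

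Signal was summed per mouse (at least 5 columns), scaled by TMM (trimming 30% of ratios and 5% of levels), expressed per 1000000 (SPM) and put on a log2 scale after adding a pseudocount of 1, which understates the change of low genes. A gene entered the fit when it reached 10 SPM in a number of mice no smaller than the smaller group. Testing used limma 3.58.1 (trend, R 4.3.3), with Benjamini-Hochberg adjustment over all genes tested and a threshold of 0.05. Mice are the replicates; the p-values measure the spread between them, and some mice share identical columns, so they are less independent than assumed. For the difference between classes limma ran without a trend on each mouse's granulocyte minus B cell value. Columns overlap in content, so no counting interval is given. The precision is limited by the 5 to 20 granulocyte columns per healthy mouse. The fit was also run on simulated data, in which the spread put between mice was below the observed one. Simulated mice shared no columns, so that run cannot show how shared columns act on the p-values.

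The members, lists and most choices were made with earlier results of these data known, so no list or test is independent of them. The text names the 8 members, up to 4 genes per list with the smallest p over all blood columns (not all are printed), genes called in a list (Mmp25 was chosen so), and the 3 genes most like each member. Promoters are from the RefSeq table on GRCm38.p6 (all 8 matched by symbol) and positions from GENCODE M21. Alternatives changed the scaling, filter, pseudocount, weights, columns, hemoglobin genes, depth and the mice used. Collapsing identical columns also removed those found in both groups. Python 3.11.15, numpy 2.4.6, pandas 2.3.3 and matplotlib 3.10.9 did the rest.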

Additional observations from a re-analysis of the deposited data

Results flagged for a closer look

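Among 40 groups of mice examined (8 genes, in the column sets and groups with at least 4 mice), 3 held a mouse whose gap to its nearest neighbour was large for the group's range by Dixon's criterion, and chance marks about 1 in 20 groups. Mxd1 in granulocyte columns of arthritic mouse 6 was 278 SPM, against 427.5 to 449.8 SPM in the other 4 arthritic mice, and still above the 4 healthy mice. G0s2 in granulocyte columns of healthy mouse 2 was 85.5 SPM, against 0 to 12.0 SPM in the other 3 healthy mice, from 7 units of signal in 5 columns. Csf3r in B cell columns of arthritic mouse 5 was 46.5 SPM, against 5.02 to 13.5 SPM in the other 4 arthritic mice, from 9 columns.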

How the results depend on the processing

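The count of genes called depended strongly on the processing. In granulocyte columns it was 52, against 5 under median-of-ratios scaling, 2 under total scaling, 2801 with no filter, 175 with a pseudocount of 5, 283 with array weights, 163 for means of column values, 771 with identical columns collapsed, 282 without hemoglobin genes and 8 after thinning. Leaving out 1 mouse gave 0 (arthritic mouse 1, 3 or 5) to 883 (healthy mouse 2), with 3 without arthritic mouse 4, 172 without arthritic mouse 6, and 338, 243 and 380 without healthy mouse 1, 3 and 4. Over all columns the count was 4, against 19 under total scaling, 0 with no filter, 7 with a pseudocount of 5, 0 with array weights, 10 without hemoglobin genes and 8 after thinning. There, leaving out 1 mouse gave 0 (arthritic mouse 1 or 3, healthy mouse 1, 2 or 4) to 64 (arthritic mouse 6), and 1 without arthritic mouse 4 or healthy mouse 3. In B cell columns it was 0, and 0 to 59 when 1 mouse was left out (59 without healthy mouse 2). For the difference between classes it was 0, and 0 to 130 when 1 mouse was left out (29, 130 and 73 without healthy mouse 1, 2 and 4). The cause was not tested in any of these.

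Trem1 and Mxd1 kept a positive difference in granulocyte columns in all 20 alternatives, from 1.08 to 2.00 and from 0.79 to 1.67, and passed in 13 and 12 of them. The log2 differences of all 8 members stayed positive there under every alternative run. The median of all genes in those columns moved from 0.53 to 0.37 under median-of-ratios scaling and to 0.08 after thinning. Over all columns Csf3r reversed to -0.033 after thinning, and it ran from -0.17 to 0.91 when 1 mouse was left out. In B cell columns, where these genes are low, Cxcr2 was -0.11 under median-of-ratios scaling, -0.037 with a pseudocount of 5, -0.021 for means of column values and -1.42 after thinning (-0.48 to 1.12 leaving out 1 mouse). Clec4d there was -0.055 under median-of-ratios scaling, -0.43 with array weights and -0.50 after thinning (-0.49 to 0.61 leaving out 1 mouse), and Csf3r -0.24 with array weights and -0.33 with identical columns collapsed (-0.17 to 0.46). Trem1 there turned to 0.13 under total scaling, 0.21 with a pseudocount of 5, 0.63 with array weights, 0.14 for means of column values and 0.10 without hemoglobin genes (-0.43 to 0.90). In the difference between classes Clec4e ran from -0.45 to 0.16 when 1 mouse was left out.

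Mouse numbers 1, 3 and 4 occur in both groups, and what a shared number stands for is not given in the sources used here. Deviations of same-numbered mice had correlations of -0.06 to 0.18 in granulocyte columns and -0.29 to 0.30 over all columns. In B cell columns they were -0.008 for mouse 1 and 0.19 for mouse 4. The best match was the same-numbered mouse only for mouse 4, in granulocyte and in B cell columns. So few values cannot decide whether the mice were paired. With the number as a replicate block, 190 genes were called in granulocyte columns, 40 over all columns and 13 in B cell columns. Under the block Csf3r (-0.42) and Clec4d (-0.29) reversed over all columns, as did Csf3r (-0.43), Cxcr2 (-0.43), Clec4d (-0.54) and Trem1 (0.67) in B cell columns.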
